A study of Mus musculus with 6 samples.

Results

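J-domain proteins, also called HSP40 proteins, are the cochaperones that deliver client proteins to HSP70 chaperones and stimulate the ATPase of HSP70 through a conserved J-domain. Class A members carry the J-domain, a glycine- and phenylalanine-rich stretch and a zinc finger, class B members carry the J-domain and the glycine-rich stretch, and class C members share the J-domain alone and work in many compartments, from the ribosome to mitochondria. Some cytosolic members of classes A and B are induced by heat shock factor 1, while most class C members serve housekeeping tasks. The genes described here were the protein-coding rows of the deposited count table whose name begins with Dnaja, Dnajb or Dnajc and a number. There were 45 of them among the 22046 protein-coding genes and 54532 genes of the table, 4 of class A, 13 of class B and 28 of class C.

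The libraries were made from fragmented mRNA of CD8+ T cells taken from mouse liver and sequenced in bulk. The sources used here do not say how the cells were isolated. There were 3 libraries of a control group, with the genotype label wild type, and 3 of a group that carries the label CUMS in place of a genotype. No label expands this abbreviation; the text of the series mentions chronic stress. The sources used here do not give strain, sex, age, treatment length or the mice behind each library, so p-values reflect only how these libraries vary, and that variation may be technical.

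Total counts per library were 14902248 to 18023206. Levels are given as CPM, a gene's reads relative to the total count of its library, scaled by the TMM library factors, and levels of different genes are compared only as CPM per kb of the gene length in the table. The genes of CD8+ T cells were abundant in all 6 libraries, with 740 to 1216 CPM of Cd8a. CUMS replicates 2 and 3 held more genes with almost no reads than the other libraries. Among 2771 tested genes with a mean of 2 to 10 CPM, 3.10% (95% exact binomial interval 2.49 to 3.82) lay under 0.1 times their median across libraries in CUMS replicate 2 and 4.11% (3.41 to 4.92) did so in CUMS replicate 3, against at most 0.0722% in any of the other 4 libraries. These binomial intervals cover counting error only. In these bulk samples fewer cells of a type and less RNA per cell cannot be told apart.

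Markers of some other cell types differed between the groups as well. The test described below called 0.946% of all genes tested as lower in CUMS and 0.363% as higher. The summed level of 15 monocyte and neutrophil markers was 4366 to 6671 CPM in control and 3013 to 3283 CPM in CUMS, and 5 of the 15 were called lower. The sum of 6 CD4 T cell markers was 459 to 506 CPM in control and 221 to 235 CPM in CUMS, and 5 of the 6 were called lower. The sum of 11 Kupffer cell and macrophage markers was 165 to 249.8 CPM and 94.5 to 101 CPM. Most of it was Slc40a1, at 99.2 to 166 CPM and 61.3 to 71.4 CPM. Of the 6 tested, 3 were called lower, Slc40a1, Cd68 and Hmox1, and C1qc had a positive fold change. Timd4 had no read in any library, and Clec4f had at most 0.449 CPM. The sum of 9 hepatocyte markers was 145 to 280.1 CPM and 114 to 131 CPM. Most of it was haptoglobin, Hp, at 137 to 269.8 CPM and 100.2 to 119 CPM. Alb had 4.23 to 6.29 CPM in control and 6.79 to 9.10 CPM in CUMS. Of the 5 hepatocyte markers tested, Hp had a negative fold change and the other 4 a positive one. Their median log2 fold change was 0.94, and none was called. The sum of 10 B cell markers was 152 to 172 CPM and 138 to 174 CPM, with none called. The sum of 7 CD8 T cell genes was 3279 to 3553 CPM and 4031 to 4429 CPM, with 1 called higher. The part of these markers in the results below was not tested.

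Heat shock factor 1 binds inverted repeats of the letters GAA, and the windows around the starts of 5 members are printed because these are the cytosolic members of classes A and B with the lowest fold changes. The window of Dnajb6 held the only exact match among the members to a run of 3 repeats. The sequences are RefSeq windows of GRCm38.p6, from 250 bases before to 50 bases after a listed start. Each is given 5′ to 3′ on the gene's strand. Capitals mark matches to GAANNTTC or TTCNNGAA, the 2-unit forms, which each read the same on both strands, and to the 3-unit form GAANNTTCNNGAA or its reverse complement TTCNNGAANNTTC with at most 1 mismatch. The 3-unit form holds both 2-unit forms, so the matches overlap. The windows lie at chr4:40722218-40722517 (Dnaja1, plus), chr9:54699309-54699608 (Dnaja4, plus), chr8:83607925-83608224 (Dnajb1, plus), chr3:152193796-152194095 (Dnajb4, minus) and chr5:29735648-29735947 (Dnajb6, plus strand).
Dnaja1: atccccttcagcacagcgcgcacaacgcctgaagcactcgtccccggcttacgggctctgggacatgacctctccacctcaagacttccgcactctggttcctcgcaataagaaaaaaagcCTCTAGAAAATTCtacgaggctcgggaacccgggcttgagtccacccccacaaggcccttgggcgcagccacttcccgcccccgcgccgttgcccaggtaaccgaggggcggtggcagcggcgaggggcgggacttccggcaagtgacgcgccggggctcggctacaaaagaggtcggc
Dnaja4: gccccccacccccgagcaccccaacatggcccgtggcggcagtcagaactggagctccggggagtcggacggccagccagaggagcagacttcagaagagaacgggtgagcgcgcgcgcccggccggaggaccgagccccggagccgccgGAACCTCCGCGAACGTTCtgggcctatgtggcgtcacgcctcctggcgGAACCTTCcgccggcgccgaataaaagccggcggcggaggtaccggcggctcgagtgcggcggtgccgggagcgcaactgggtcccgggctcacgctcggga
Dnajb1: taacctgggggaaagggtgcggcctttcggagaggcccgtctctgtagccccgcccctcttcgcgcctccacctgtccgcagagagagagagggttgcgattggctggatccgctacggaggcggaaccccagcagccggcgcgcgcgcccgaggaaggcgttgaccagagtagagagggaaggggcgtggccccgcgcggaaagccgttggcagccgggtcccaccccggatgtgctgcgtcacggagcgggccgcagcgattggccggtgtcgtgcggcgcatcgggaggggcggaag
Dnajb4: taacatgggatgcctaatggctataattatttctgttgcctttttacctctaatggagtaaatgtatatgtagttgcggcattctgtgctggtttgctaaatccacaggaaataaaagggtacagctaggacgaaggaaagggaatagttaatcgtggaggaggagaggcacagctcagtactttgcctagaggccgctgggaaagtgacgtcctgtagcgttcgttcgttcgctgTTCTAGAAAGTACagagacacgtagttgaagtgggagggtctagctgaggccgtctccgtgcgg
Dnajb6: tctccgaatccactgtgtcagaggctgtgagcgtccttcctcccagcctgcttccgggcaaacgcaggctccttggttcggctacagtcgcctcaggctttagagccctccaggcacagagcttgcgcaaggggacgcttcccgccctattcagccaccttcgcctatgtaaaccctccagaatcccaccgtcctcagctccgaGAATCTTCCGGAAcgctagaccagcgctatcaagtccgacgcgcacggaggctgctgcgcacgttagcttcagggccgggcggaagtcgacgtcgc

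A window was listed for 37 of the 45 members. The 3-unit form with at most 1 mismatch was present for 6 of the 37, Dnaja1, Dnaja4, Dnajb4, Dnajb6, Dnajc27 and Dnajc8, and for 8.15% of all 27025 genes with a window. Of all 32851 windows, 7.22% held it. A gene counted if any of its listed windows matched, so a gene with more windows had more chances. Dnaja1 had 3 windows, and Dnaja4, Dnajb1, Dnajb4 and Dnajb6 had 2 each. The shares of members and of all genes were not matched for this. The exact 3-unit form was present for Dnajb6 alone among the members and for 0.662% of all genes. A 2-unit form was present for 7 of the 37 and 17.0% of all genes. The match began 129 bases before the start in the window of Dnaja1 and 14 bases before it in that of Dnajb4. The Dnaja4 window held overlapping 3-unit matches that began 100 and 95 bases before the start, and a separate 2-unit match 52 bases before it. In Dnajb6 the exact match began 46 bases before the start. In both windows listed for Dnajb1 the closest stretch had at least 3 mismatches to the 3-unit form, so these letters were not in those windows. Where a gene had several listed starts, the window with the fewest mismatches is printed. The motifs were chosen after the fold changes were known. A part of heat shock factor 1 in the fold changes was not tested.

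CUMS was compared with control to ask which J-domain transcripts differed. Dnaja1, of class A, and Dnajb1, of class B, fell by about the same factor. The intervals of Dnaja2, Dnajc3, Dnajc5, Dnajc7 and Dnajc8, also abundant, took in 0. Of the 45 genes, 39 had enough reads to be tested, all 4 of class A, 10 of class B and 25 of class C. By edgeR's quasi-likelihood test with Benjamini-Hochberg adjustment over all 14054 genes tested, 2 of the 39 passed an adjusted p of 0.05, both lower in CUMS, and 37 did not pass. The same test called 1.31% of all genes tested, 0.946% as lower and 0.363% as higher. At an unadjusted p under 0.05 there were 8 members, 4 lower and 4 higher, where 15.3% of all genes reached it, 8.22% lower and 7.06% higher. The groups were fully separate, without overlap, for 7 of the 39, with 5 lower and 2 higher in CUMS. The same held for 22.7% of all genes tested, 12.0% lower and 10.8% higher. The share of all genes called was 2.93% with no filter on low counts, 5.7% with DESeq2, 3.54% with limma voom, 0.505% with a replicate block and 0.0439% without CUMS replicates 2 and 3. The median log2 fold change was -0.085 over the 39 and -0.0051 over all genes tested.

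**Figure D1:**
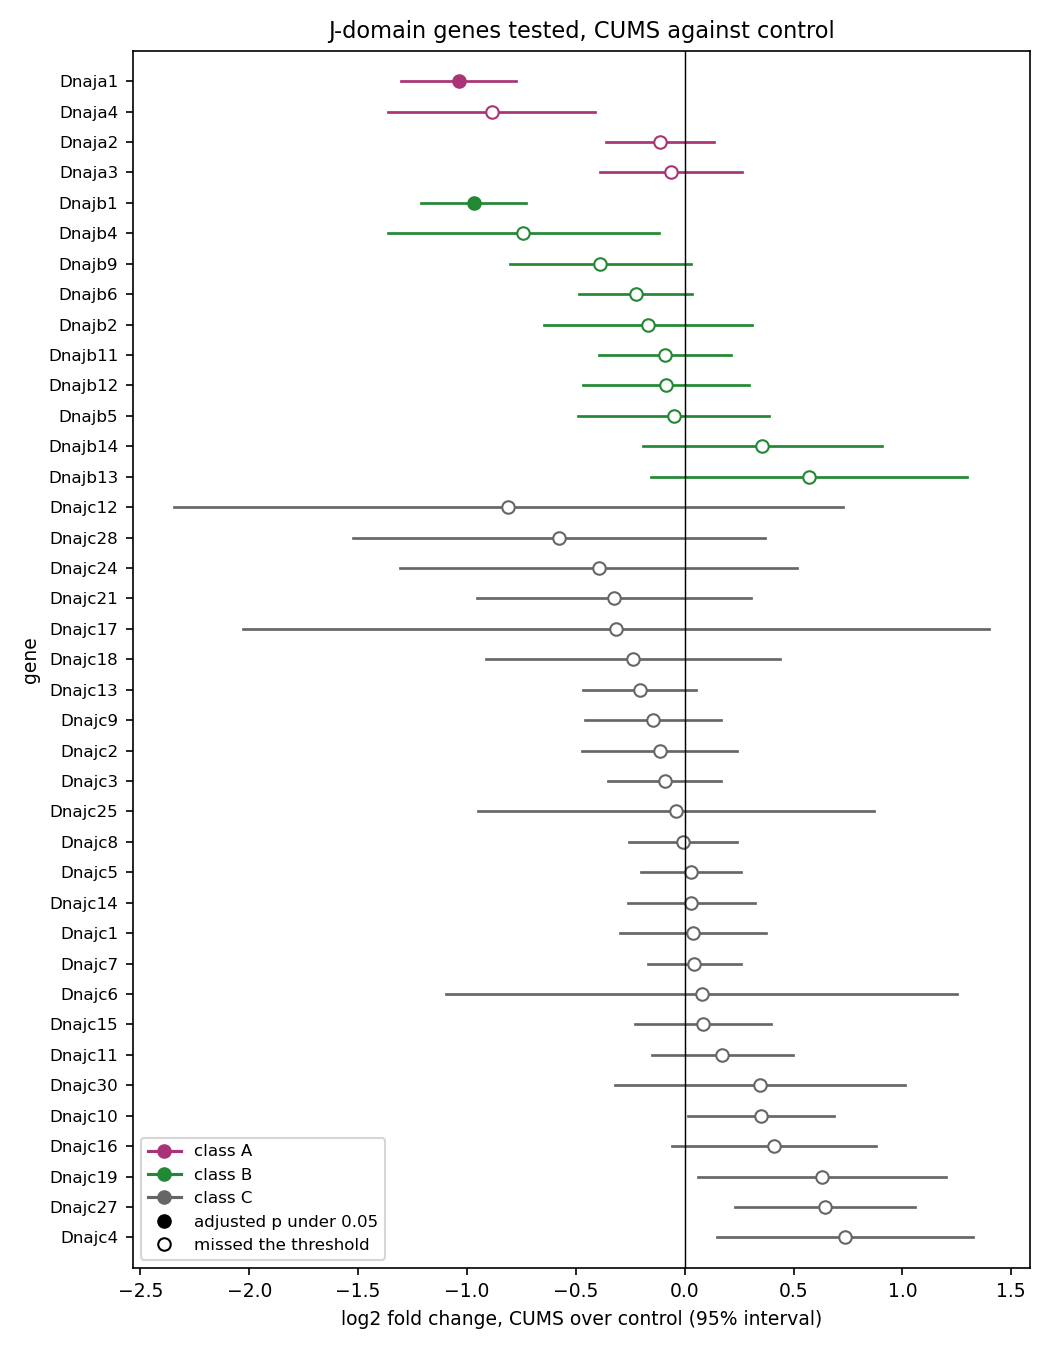
Fitted log2 fold change of CUMS over control (x axis) for each of the 39 J-domain genes tested (y axis), grouped by class, with its 95% interval. The filled points of Dnaja1 and Dnajb1 lie near -1, and the open points of the other 37 genes missed the threshold.

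Dnaja1 encodes a farnesylated cytosolic cochaperone of the constitutive HSP70 Hspa8. It lies on mm10 chromosome 4, 40722150 to 40737149, plus strand (ENSMUSG00000028410). Its level was 464, 460.3 and 469.6 CPM in the control libraries, in replicate order here and below, and 232, 256 and 191 CPM in those of CUMS. The controls lay within a narrow band, and all 3 CUMS libraries lay far below them. It was 2.05-fold lower in CUMS (log2 fold change -1.04 ± 0.12 SE, 95% interval -1.30 to -0.77, edgeR adjusted p = 0.00413). It passed whichever of the 6 libraries was left out. Without CUMS replicates 2 and 3 together, which leaves CUMS replicate 1 alone, the log2 fold change was -1.01.

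The sources used here do not say whether the counting used strand, and without it reads of a gene and of its neighbour on the other strand cannot be told apart. Such an overlap was present for 18 of the 39 members tested. Of the 75-base stretches of the transcripts of Dnaja1 in GENCODE M21, 18.4% also occur in transcripts of other genes. Among these are the processed pseudogenes Gm7816 and Gm15542 and the splicing factor gene Smu1, which overlaps Dnaja1 on the opposite strand. For Smu1 the log2 fold change was 0.058 ± 0.12, edgeR adjusted p = 0.882. Gm15542 had 320, 282 and 379 counts in control and 166, 187 and 156 counts in CUMS. It missed the threshold (-0.84 ± 0.22, edgeR adjusted p = 0.0873). Gm7816 had 52, 40 and 33 counts in control and 15, 12 and 10 counts in CUMS. It missed the threshold as well (-1.65 ± 0.81, edgeR adjusted p = 0.370). Dnaja1 itself had 8201 to 8211 counts in control and 2896 to 4169 in CUMS.

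Dnajb1, on chromosome 8, 83608193 to 83612653, plus strand (ENSMUSG00000005483), encodes the class B protein that works with HSP70 and HSP110 in the recovery of aggregated proteins. It had 182, 173 and 175 CPM in control and 93.3, 95.02 and 81.9 CPM in CUMS. The groups were far apart and each was tight, and the fall was 1.96-fold (log2 fold change -0.97 ± 0.11, 95% interval -1.21 to -0.73, edgeR adjusted p = 0.00369). Like Dnaja1 it passed whichever library was left out. With CUMS replicate 1 as the only CUMS library, its value was -0.92. It overlaps no other gene in the table and shares no 75-base stretch with another gene's transcripts.

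**Figure D2:**
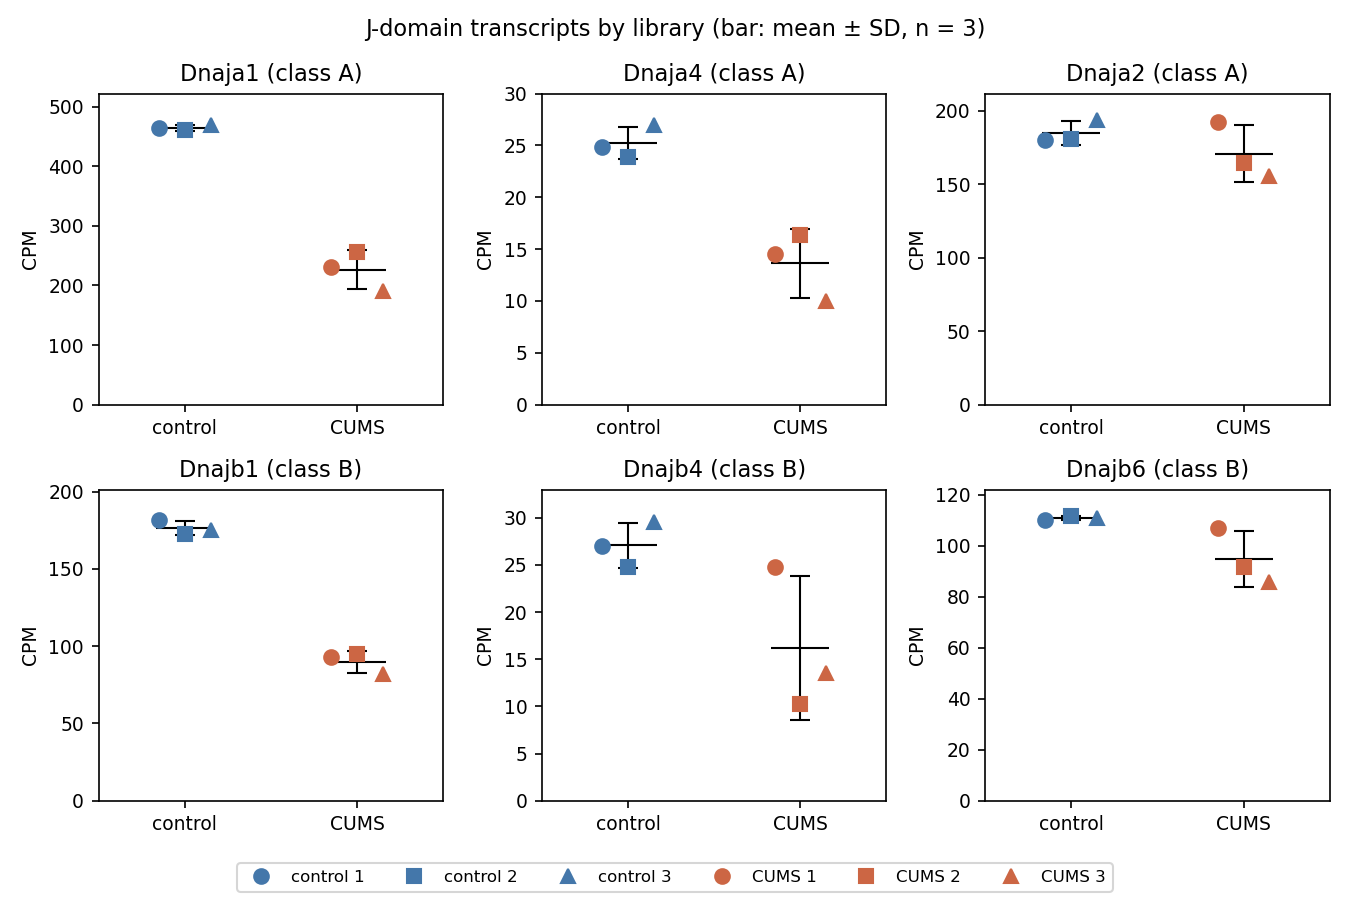
Level in CPM (y axis, from 0) of 3 class A and 3 class B genes in each library of the control and CUMS groups (x axis), with symbols for replicates 1, 2 and 3 and the mean ± SD. All CUMS points of Dnaja1, Dnaja4 and Dnajb1 lie well below the controls, those of Dnaja2 overlap them, and CUMS replicate 1 of Dnajb4 lies among the controls.

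The other class A genes differed in their values. Dnaja4, a cytosolic relative of Dnaja1 (chromosome 9, 54698873 to 54716315), had 24.9, 23.9 and 26.9 CPM in control and 14.6, 16.4 and 9.95 CPM in CUMS. Its groups did not overlap either, with a log2 fold change of -0.89 ± 0.22 (interval -1.36 to -0.41), but it missed the threshold (edgeR adjusted p = 0.0743). DESeq2 (adjusted p = 0.0156), limma voom with quality weights (0.0499) and edgeR with no filter on low counts (0.00914) called it, and over all 15 alternative fits the adjusted p ran from 0.00914 to 0.268. Dnaja4 shares 42.0% of its 75-base stretches with Wdr61, which overlaps it on the opposite strand and whose own value was -0.11 ± 0.17 (edgeR adjusted p = 0.841).

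Dnaja2, another abundant cytosolic class A cochaperone and free of any overlap with other genes, had 180.3, 181 and 194 CPM in control and 193, 165 and 156 CPM in CUMS. The groups overlapped, and the log2 fold change was -0.11 ± 0.11 with an interval of -0.36 to 0.14, so a fall of the size seen for Dnaja1 lay outside it. Dnaja3, which works in the mitochondrial matrix, had 46.1, 38.2 and 47.1 CPM in control and 44.8, 37.4 and 43.4 CPM in CUMS (-0.063 ± 0.15, interval -0.39 to 0.26). The median log2 fold change of the 4 class A genes was -0.50.

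The ratio of Dnaja1 to Dnaja2, both as CPM per kb, was 0.887, 0.879 and 0.834 in control and 0.415, 0.536 and 0.423 in CUMS. All CUMS ratios lay below all control ratios. Dnaja1 had been called lower and Dnaja2 differed little, so this separation follows from those values and is no separate result. A ratio within a library shows unequal change between the genes and does not depend on the library scaling. With 3 libraries against 3 an exact two-sided permutation test cannot give a p below 0.1, so none was run.

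In class B the fold change nearest to that of Dnajb1 was that of Dnajb4. Dnajb4, a cytosolic relative of Dnajb1 (chromosome 3, 152178511 to 152210302), had 27.0, 24.8 and 29.5 CPM in control, 24.8 CPM in CUMS replicate 1, and 10.3 and 13.5 CPM in CUMS replicates 2 and 3. The low values were those of CUMS replicates 2 and 3, and CUMS replicate 1 lay at the level of control replicate 2. The log2 fold change was -0.74 ± 0.28 (interval -1.36 to -0.12, edgeR adjusted p = 0.241) and -0.13 without CUMS replicates 2 and 3. Over the 15 alternative fits the adjusted p ran from 0.0354, with no filter, to 0.875.

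Dnajb6, which holds back the aggregation of polyglutamine and amyloid proteins, had 110, 112 and 111 CPM in control and 107, 91.7 and 85.7 CPM in CUMS. The groups did not overlap, yet the difference was small and missed the threshold (-0.22 ± 0.12, interval -0.48 to 0.034, edgeR adjusted p = 0.411). Of its 75-base stretches, 19.1% occur in other genes, among them processed pseudogenes. The ratio of Dnajb1 to Dnajb6 as CPM per kb was 2.93 to 3.12 in control and 1.65 to 1.96 in CUMS. Dnajb1 had been called lower, so this ratio is no separate result either. Dnajb5 (-0.051 ± 0.20) and Dnajb2 (-0.17 ± 0.22), the remaining cytosolic and nuclear class B genes, had intervals that took in 0.

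Some of the members of the endoplasmic reticulum serve Hspa5, the HSP70 of that compartment also called BiP. Of all 11 members of this compartment tested, none passed. Their log2 fold changes ran from -0.39 to 0.41 with a median of -0.039. Dnajb9, which holds the stress sensor IRE1 inactive together with BiP, had 36.7, 33.3 and 39.5 CPM in control and 34.3, 21.6 and 27.8 CPM in CUMS (-0.39 ± 0.19, edgeR adjusted p = 0.369). Its lowest value was in CUMS replicate 2, and CUMS replicate 1 lay above the lowest control. Dnajb11, a soluble BiP cochaperone that binds unfolded clients, had 71.2 to 95.6 CPM in control and 69.8 to 80.2 CPM in CUMS (-0.089 ± 0.14, interval -0.39 to 0.21).

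Dnajc3, the p58IPK protein of the endoplasmic reticulum, was among the members of highest length-scaled level. It had 230, 223 and 258 CPM in control and 226, 247 and 195 CPM in CUMS (-0.092 ± 0.12, interval -0.35 to 0.17). Its window was the only one of the members that held the ER stress response element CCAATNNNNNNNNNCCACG on either strand, which 0.137% of all genes had. Dnajc10, a disulfide reductase that aids the disposal of misfolded proteins, had 72.6 to 75.7 CPM in control, 105 and 106 CPM in CUMS replicates 1 and 2, and 71.6 CPM in CUMS replicate 3 (0.35 ± 0.15, interval 0.017 to 0.69, edgeR adjusted p = 0.302). CUMS replicate 3 was the lowest of all 6 libraries for this gene.

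No class C gene passed the threshold. Of the 25 tested, 13 had a positive and 12 a negative fold change, with a median log2 fold change of 0.029. The members with the smallest p were both higher in CUMS. Dnajc27, a Rab-like GTPase that carries a J-domain (chromosome 12, 4082583 to 4110606), had 15.95, 15.7 and 13.1 CPM in control and 25.3, 23.4 and 21.3 CPM in CUMS. The groups did not overlap (0.65 ± 0.19, interval 0.23 to 1.06, edgeR adjusted p = 0.125). Dnajc4 (chromosome 19, 6987911 to 6992503) had 6.11, 9.82 and 6.52 CPM in control and 12.2, 12.2 and 13.1 CPM in CUMS. Its groups did not overlap either (0.74 ± 0.27, interval 0.15 to 1.32, edgeR adjusted p = 0.216).

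The abundant class C genes had some of the narrowest intervals. Dnajc7, which links HSP70 to HSP90 through its TPR repeats, had 199.5, 203 and 198 CPM in control and 202, 209 and 208 CPM in CUMS (0.044 ± 0.097, interval -0.17 to 0.26). Dnajc8, a spliceosome-associated protein, had 107, 104 and 117 CPM in control and 118, 102 and 106 CPM in CUMS (-0.0075 ± 0.11, interval -0.26 to 0.24). Dnajc5, the cysteine string protein of secretory vesicles, had 231, 233 and 234 CPM in control and 224, 259.9 and 227 CPM in CUMS (0.029 ± 0.10, interval -0.20 to 0.26). For each of these genes the interval left out a change as large as that of Dnaja1 or Dnajb1.

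Other class C groups were described by role. The mitochondrial members, 5 of class C with Dnaja3, had log2 fold changes from -0.58 to 0.63. Dnajc19, a component of the mitochondrial import motor, had 9.39, 11.7 and 10.9 CPM in control and 21.3, 16.8 and 11.3 CPM in CUMS (0.63 ± 0.26, edgeR adjusted p = 0.276). CUMS replicate 3 lay among the controls. Dnajc15, also called MCJ, which restrains complex I of the respiratory chain and is known for this role in CD8+ T cells, had 88.0, 86.8 and 103 CPM in control and 117, 85.6 and 91.1 CPM in CUMS (0.084 ± 0.14, interval -0.23 to 0.40).

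Of the members tied to the ribosome and translation, Dnajc2 (-0.11 ± 0.16), a ribosome-associated cochaperone, Dnajc21 (-0.32 ± 0.29), whose yeast relative acts in ribosome assembly, and Dnajc24 (-0.40 ± 0.42), a factor of diphthamide synthesis, did not pass. With 1 library left out Dnajc21 ran from -0.59 to -0.0091 and Dnajc24 from -0.92 to -0.069, and both were positive, at 0.084 and 0.28, without CUMS replicates 2 and 3. Dnajc9, a chaperone of histones H3 and H4, had a log2 fold change of -0.15 ± 0.14. The endosomal protein gene Dnajc13 had 139 to 158 CPM in control and 111 to 135 CPM in CUMS, without overlap (-0.21 ± 0.12, edgeR adjusted p = 0.461). Dnajc6, the clathrin uncoating factor auxilin, was low at 1.796 to 4.75 CPM.

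A few members of low level had wide intervals set by single libraries. Dnajc17, a nuclear protein of the splicing machinery, had 77, 91 and 135 counts in control and 123, 3 and 102 counts in CUMS replicates 1, 2 and 3. The 3 counts of CUMS replicate 2 equal the limit that a count of 0 allows, and the interval ran from -2.03 to 1.40. Dnajc12, a chaperone of aromatic amino acid hydroxylases, had 58 to 76 counts in control and 48, 6 and 52 counts in CUMS (-0.81 ± 0.70, edgeR adjusted p = 0.657). Of the 37 members that missed the threshold, 25 had an interval inside a 2-fold change either way and 17 inside a 1.5-fold change. For 7 the interval reached a 2-fold fall and for 7 a 2-fold rise, so such changes were not excluded at this depth and spread.

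**Figure D3:**
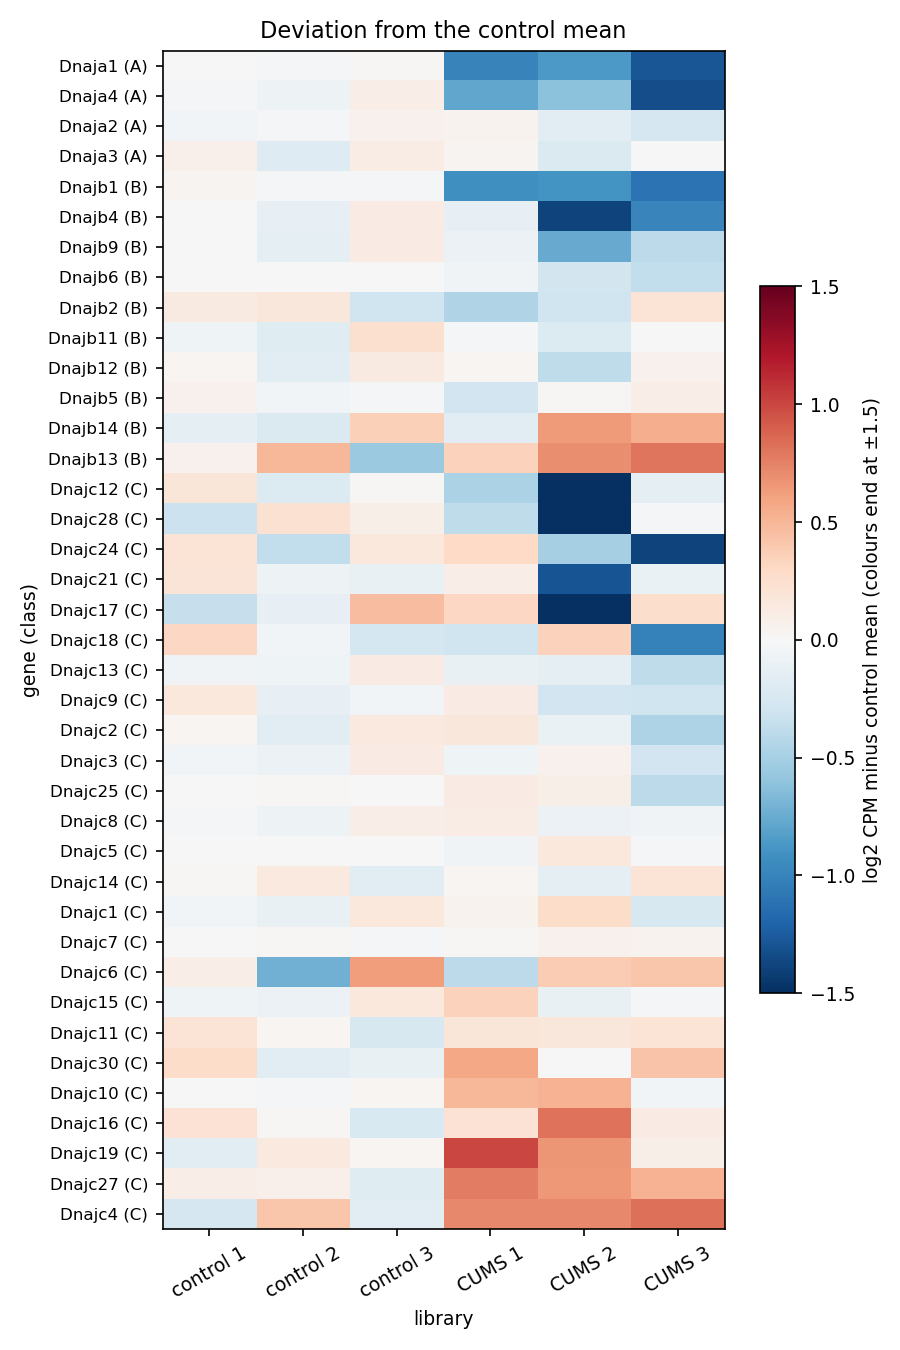
Difference of log2 CPM (prior count of 2) from the control mean in each library (columns) for the 39 J-domain genes tested (rows, ordered by class and fold change). The rows of Dnaja1, Dnaja4 and Dnajb1 are low in all 3 CUMS libraries, while Dnajb4, Dnajc12 and Dnajc17 are lowest in CUMS replicate 2.

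The 6 genes that were not tested were at or near 0. Dnajc5b, Dnajc5g and Dnajc22 had no read in any library, which allows at most 0.168 to 0.198 CPM per library. Dnajb3 and Dnajb8, known from testis, had at most 3 and 2 counts in a library. Dnajb7, also known from testis, had 5, 5 and 12 counts in control and 6, 0 and 0 counts in CUMS. Dnajb13, a protein of sperm flagella, was tested with 4.06 to 8.59 CPM in control and 7.74 to 10.6 CPM in CUMS (0.57 ± 0.33, edgeR adjusted p = 0.471), but it overlaps the uncoupling protein gene Ucp2 on the opposite strand.

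By length-scaled level, Dnaja2 led in control with 62.2 CPM per kb, followed by Dnajb1 with 55.1, Dnaja1 with 53.9, Dnajc3 with 46.1 and Dnajc8 with 42.8 CPM per kb. In CUMS the order was Dnaja2 with 57.5, Dnajc3 with 43.3, Dnajc8 with 42.6 and Dnajc7 with 42.4 CPM per kb, and Dnajb1 and Dnaja1 stood at 28.1 and 26.2 CPM per kb. In control the libraries of Dnaja1 spanned 53.35 to 54.43 and those of Dnajb1 53.96 to 56.65 CPM per kb, so these neighbours overlapped. The order within a group depends on the gene length used. Per kb of the longest coding transcript in GENCODE M21, a scale added after the data were seen, Dnaja1 had 82.7, Dnajc7 85.9 and Dnajc8 78.1 CPM per kb in control, and Dnaja2 63.4.

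Summed over all 45 members, the J-domain transcripts reached 607, 585 and 621 CPM per kb in control and 576, 527 and 503 CPM per kb in CUMS. Class A held 21.9% to 22.4% of that sum in control and 17.6% to 18.8% in CUMS. Class B held 22.8% to 23.1% in control and 18.4% to 20.5% in CUMS. The share of class C was 54.5% to 55.1% in control and 61.9% to 62.8% in CUMS, with a similar sum of 331 ± 9.06 and 334 ± 24.4 CPM per kb (SD, n = 3). The groups did not overlap in any of the 3 shares, but classes A and B include Dnaja1 and Dnajb1, already called lower. On average Dnaja1 held 8.92% of the sum in control and 4.90% in CUMS, and Dnajb1 9.12% and 5.26%. The separation of the shares is therefore no separate result, and shares without these genes were not computed. The shares are parts of the same sum, so lower shares of classes A and B raise that of class C. Dnaja1 and Dnajb1 were then left out because they had been called lower. Without them the sum was 495 ± 17.4 CPM per kb in control and 481 ± 34.3 CPM per kb in CUMS. These sums were not tested.

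**Figure D4:**
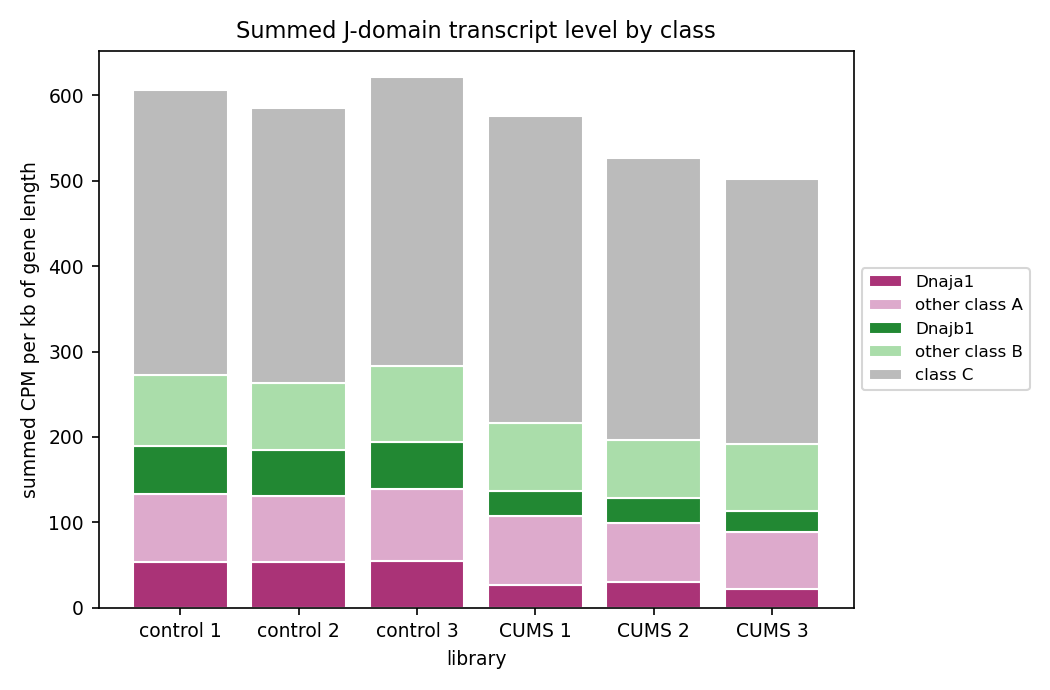
Summed level of J-domain transcripts in CPM per kb of gene length (y axis, from 0) in each of the 6 libraries (x axis), stacked by class with Dnaja1 and Dnajb1 shown apart. The segments of Dnaja1 and Dnajb1 are shorter in all 3 CUMS libraries, and the class C segment is 321 to 338 CPM per kb in control and 311 to 359.6 in CUMS.

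The HSP70 chaperones that J-domain proteins serve were measured in the same fit. Of 15 genes of HSP70 and HSP110 chaperones, 14 were tested, 4 passed as lower, none as higher and 10 did not pass. Of all genes tested, 0.946% passed as lower and 0.363% as higher. Among the 14 chaperone genes, 13 had a negative and 1 a positive fold change. The median log2 fold change of these chaperone genes was -0.87, against -0.0051 over all genes tested. Hspa8 went from 3032 ± 196 CPM in control to 1718 ± 90.7 CPM in CUMS (-0.82 ± 0.092, edgeR adjusted p = 0.00369), and the HSP110 chaperone Hsph1, the nucleotide exchange partner in disaggregation, from 442 ± 31.5 to 117 ± 16.1 CPM. The stress-inducible Hspa1b (-0.92 ± 0.16), which has the near-identical copy Hspa1a, and Hspa4l (-1.21 ± 0.18) also fell. Hsph1 passed whichever library was left out. Without CUMS replicate 2, Hspa8 (-0.78, edgeR adjusted p = 0.051), Hspa4l (-1.11, 0.0627) and Hspa1b (-0.81, 0.0822) missed the threshold, Hspa4l also did so without control replicate 3 (0.0577), and Hspa1b passed only without CUMS replicate 3 among the 6. With the replicate block Hspa1b also missed it (-0.94, edgeR adjusted p = 0.055). Hspa5, the HSP70 of the endoplasmic reticulum, had 386 to 420.0 CPM in control and 289 to 309 CPM in CUMS. It just missed the threshold (-0.43 ± 0.098, edgeR adjusted p = 0.0568). The mitochondrial Hspa9 had -0.073 ± 0.13.

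The ratio of Hspa8 to the summed J-domain transcripts, both as CPM per kb, was 1.13, 1.15 and 1.22 in control and 0.722, 0.713 and 0.810 in CUMS. Hspa8 had been called lower, so this ratio is no separate result. Nucleotide exchange factors release ADP from HSP70, and HSP110 chaperones such as Hsph1, counted above, are among them. Of 10 exchange factors outside the HSP110 chaperones, none passed, and their median log2 fold change was 0.032. Bag3, a stress-inducible member, had -0.50 ± 0.36. Of 4 genes with a J-domain and another name, none passed. Sec63 (-0.18 ± 0.15) and Gak (-0.052 ± 0.10) act in import into the endoplasmic reticulum and in clathrin uncoating. Hscb, the cochaperone of mitochondrial iron-sulfur cluster assembly, had 11.8 to 16.1 CPM in control and 20.8 to 24.4 CPM in CUMS without overlap, and missed the threshold (0.73 ± 0.20, edgeR adjusted p = 0.0973).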

How the data were processed

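Gene counts of 6 bulk RNA-seq libraries, 3 control and 3 CUMS, were used as the authors deposited them, as whole reads per gene, with a gene length for each row (unit other, also deposited by the authors). The submitters' processing notes name mm10, the aligner HISAT2 2.0.5, the counter featureCounts 1.5.0-p3, fastp and DESeq2 1.20.0. For annotation release and strand setting: not given in the sources used here. Total counts per library were 14902248 to 18023206.

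Genes were filtered with filterByExpr by group, scaled with TMM and tested with edgeR 4.0.16 (R 4.3.3) by its two-sided quasi-likelihood test, CUMS against control, with Benjamini-Hochberg adjustment over all 14054 genes tested and a threshold of 0.05. The SE was the log2 fold change divided by the square root of F. The script was tested on simulated data. Named genes were the members past the threshold, in each class the 3 of highest length-scaled level and the 2 of smallest p that missed it, and up to 4 partner genes per list past it. Other members were named after their values were seen. The members and lists were chosen with earlier results of these data known. Alternatives were no filter, a stricter filter, protein-coding genes alone, total-count and median-of-ratios scaling, DESeq2 1.42.0, limma 3.58.1 voom with quality weights, a replicate block and libraries left out. CUMS replicates 2 and 3 were also left out together, since earlier results set them apart. That fit kept CUMS replicate 1 alone, so its p-values rest on the spread among the controls. The motif search and the length-scale alternative were chosen after the data were seen. Binomial intervals of shares and floors (3 counts) cover counting error only, while intervals of log2 fold changes include the spread between libraries.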

Additional observations from a re-analysis of the deposited data

How the results depend on the processing

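Dnaja1 and Dnajb1 passed in the 14 alternative fits that kept more than 1 CUMS library. Their edgeR, DESeq2 or voom adjusted p was at most 0.0283 and 0.0273. With CUMS replicate 1 alone their log2 fold changes were -1.01 and -0.92. The count of J-domain genes past the threshold, 2 and both lower, was 4 with no filter (Dnaja4 and Dnajb4 added) and 1 without CUMS replicates 2 and 3 together. None was higher under any setting, and 35 of the 39 passed in none. Of all genes, 184 passed, against 704 with no filter, 316 with a stricter filter, 280 among protein-coding genes alone, 626 with DESeq2, 497 with voom, 71 with the replicate block, 7 without CUMS replicates 2 and 3, and 9 to 178 with 1 library left out (62, 19 and 46 without control replicates 1, 2 and 3, 92, 9 and 178 without CUMS replicates 1, 2 and 3). HSP70 and partner genes past the threshold numbered 4, against 7 with DESeq2, 1 without CUMS replicates 2 and 3 and 1 to 4 with 1 library left out. The class C median of 0.029 was 0.115 without CUMS replicates 2 and 3 and -0.075 to 0.034 with 1 library left out. The labels do not say that replicate numbers pair the libraries. Same-number correlations of deviations from the group means were 0.0137, -0.0358 and -0.0369. They showed no pairing but cannot exclude a small shared effect. The replicate block left 2 J-domain and 3 partner genes called, without Hspa1b.

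The fold change took the other sign in at least 1 alternative for 19 of the 39 members, 13 of them without CUMS replicates 2 and 3 together and 14 with 1 library left out. None of the 19 passed in any fit. Among the genes named by rule, these values were as follows. Dnaja2 was 0.053 without CUMS replicates 2 and 3. Dnaja3 was 0.0090 without CUMS replicate 2 (from -0.158 with 1 library left out) and 0.030 without CUMS replicates 2 and 3. Dnajb11 was 0.033 without control replicate 3 (from -0.18). Dnajc8 was 0.027 with total-count scaling, 0.0089 with the stricter filter, 0.00015 among protein-coding genes, 0.0088 with voom, 0.030 without control replicate 3, 0.032 without CUMS replicate 2, 0.011 without CUMS replicate 3 (from -0.080) and 0.11 without both. The cause was not tested. With 3 libraries a group and a biological coefficient of variation of 29.8%, low genes had wide intervals.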
